A study of Mus musculus with 3 samples.

Results

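Plasmacytoid dendritic cells (pDCs) were examined among live CD45+ leukocytes of the mouse pancreas, where 158 of 14302 kept barcodes met the definition used here. Barcodes were kept at 1000 or more unique molecular identifiers (UMIs, each marking 1 captured mRNA molecule) with at most 30% of UMIs from mitochondrial genes. A kept barcode was counted as a pDC when it held a Siglech UMI and a UMI of at least 1 of Ccr9, Cox6a2, Klk1 and Pacsin1. It also had to hold no UMI of Cd79a (B cells), of Cd3d or Cd3e (T cells) and of C1qa, C1qb or C1qc (macrophages). Siglech encodes a sialic acid-binding receptor of mouse pDCs, Ccr9 a homing receptor for the chemokine CCL25, Cox6a2 a subunit of cytochrome c oxidase, Klk1 a kallikrein protease and Pacsin1 an adaptor of endocytosis. The cells were thus chosen by the UMIs of these genes, whose levels are described without a test.

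The libraries came from C57BL/6 J mice of either sex, 6 to 8 weeks old, given vehicle (PBS) or a single intraperitoneal dose of 1 mg WGP, a whole beta-glucan particle from the cell wall of the yeast Saccharomyces cerevisiae. Pancreata were taken 3 days (3-day WGP) or 7 days (7-day WGP) after WGP, and 1 droplet library was made per group. The number of mice behind each library was not given in the sources used here. With 1 library per group there were no replicates, so no test was made, and every interval is a 95% interval that covers counting error only.

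pDCs are bone marrow-derived dendritic cells of lymphoid appearance that depend on the transcription factor TCF4. They sense nucleic acids of viruses in endosomes through Toll-like receptors 7 and 9 and can then release large amounts of type I interferon. The surface protein BST2, itself induced by interferon, marks them in the mouse, and receptors that signal through the adaptor DAP12, such as Siglec-H, restrain that release.

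The 3 libraries held 48219246 to 56849043 UMIs over all barcodes. Kept barcodes numbered 5249 (PBS), 4879 (3-day WGP) and 4174 (7-day WGP), with medians of 5755, 5754 and 8077 UMIs. The pDCs had medians of 5363.5, 4812 and 9020.5 UMIs and of 2016.5, 1889.5 and 2778 genes, so the 7-day WGP cells were sampled more deeply. The libraries also differed in the sex of their cells. Xist, transcribed from the inactive X chromosome of female cells, was found without Y-linked transcripts in 2039, 479 and 1208 kept barcodes of PBS, 3-day WGP and 7-day WGP, and Y-linked transcripts without Xist in 1736, 2510 and 1865. Among pDCs, 5, 3 and 6 cells held Xist alone and 21, 35 and 43 held Y-linked UMIs alone, with both kinds in 1 cell of 7-day WGP. No barcode was shared between libraries among pDCs, and up to 9 barcodes were shared by a pair of libraries among kept barcodes.

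There were 36 pDCs in the PBS library, 62 in that of 3-day WGP and 60 in that of 7-day WGP. Their share of kept barcodes was 0.686% (0.481 to 0.948%) with PBS, 1.27% (0.976 to 1.63%) after 3 days of WGP and 1.44% (1.10 to 1.85%) after 7 days. As compared to PBS, the share was 1.85-fold higher at 3 days, a log2 ratio of 0.89 (0.27 to 1.52), and 2.10-fold higher at 7 days, a log2 ratio of 1.07 (0.45 to 1.71). Both ratios depended on the definition. With at least 1 Cox6a2 UMI required, an alternative chosen after seeing the data, both lay within counting error of PBS. They were 0.55 (-0.13 to 1.25) at 3 days and 0.29 (-0.46 to 1.03) at 7 days. The 7-day ratio was 0.57 (-0.13 to 1.29) with at least 2 companion genes required, 0.66 (-0.05 to 1.37) with at most 10000 UMIs, 0.47 (-0.02 to 0.96) with no gene required absent and 0.47 (-0.15 to 1.11) as a share of gated dendritic cells, each within counting error of PBS. The 2 WGP libraries differed from each other by a log2 ratio of 0.18 (-0.36 to 0.71), which is within counting error. Among dendritic cells gated by markers, pDCs made up 24% (17.4 to 31.6%), 39.2% (31.6 to 47.3%) and 33.3% (26.5 to 40.7%) in the same order of libraries. In cells with Y-linked UMIs and no Xist UMI alone, the shares were 1.21%, 1.39% and 2.31%, and the log2 ratios to PBS were 0.21 (-0.62 to 1.06) at 3 days and 0.93 (0.15 to 1.76) at 7 days. The 3-day value in those cells thus lay within counting error of PBS. In cells with Xist and no Y-linked UMI, which gave 5, 3 and 6 pDCs, the shares were lower, at 0.245%, 0.626% and 0.497%. The part that the mix of sexes had in the share was not tested further. A share can also move because other cells of the pancreas entered or left.

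**Figure D1:**
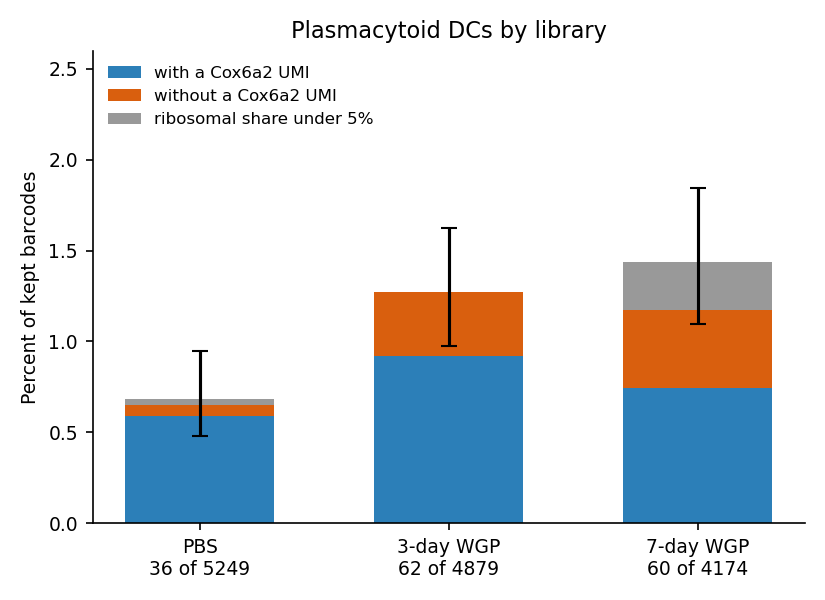
Share of kept barcodes (percent, vertical axis) that were pDCs in PBS, 3-day WGP and 7-day WGP, with each bar split into cells with a Cox6a2 UMI, cells without one and cells with under 5% ribosomal-protein UMIs. Black bars are exact 95% binomial intervals of the whole share, which was 0.686%, 1.27% and 1.44%, and the cells without a Cox6a2 UMI make up more of the bar in both WGP libraries.

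Most cells met the definition with room to spare. Siglech had a median of 9.5, 8.5 and 9 UMIs per pDC in PBS, 3-day WGP and 7-day WGP, with highest values of 23, 40 and 34. A single Siglech UMI was found in 1, 4 and 4 cells. Ccr9 was detected in 31, 57 and 58 of the cells, Cox6a2 in 33, 45 and 32, Klk1 in 16, 39 and 20 and Pacsin1 in 20, 40 and 37. All 4 of these companion genes were present in 8, 18 and 20 cells, and exactly 1 of them in 3, 7 and 21 cells. In 7-day WGP, 19 of those 21 cells held Ccr9 as their only companion gene, whereas this was so of 1 cell in PBS and 6 in 3-day WGP.

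Cells near the edges of the definition were compared through 14 further pDC markers that it does not use. Cells inside had medians of 12, 12 and 11 of these markers. The cells just inside, with 1 Siglech UMI and exactly 1 companion gene at any number of UMIs, numbered 1, 1 and 3 and had medians of 8, 6 and 7. Just outside, 134, 31 and 19 barcodes had Siglech but no companion gene and medians of 4, 3 and 7 markers, and 115, 18 and 3 of them held a C1q UMI. A further 33, 43 and 16 barcodes had Siglech and a companion gene but also a UMI of a gene that had to be absent. These were large, with medians of 12226, 13434 and 15698 UMIs, and had medians of 9, 12 and 11 markers. Barcodes without Siglech but with at least 2 companion genes numbered 39, 57 and 19.

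The label was then checked against markers that were not used to choose the cells. To compare types at equal depth, each cell was thinned to 1000 UMIs. Tcf4, the master regulator of the lineage, was then found in 75.9% of pDCs, against 20.8% of B cells, 16.3% of type 2 conventional dendritic cells (cDC2), 2.7% of type 1 (cDC1), 10.0% of monocytes and macrophages and 1.0% of T cells. Bst2, the pDC antigen PDCA-1, was found in 91.1% of pDCs and in at most 26.0% of any of the other 5 types. Irf8, a transcription factor needed by pDCs and cDC1s, was found in 87.3% of pDCs and 79.2% of cDC1s but in 7.7% of cDC2s. Runx2, a regulator of pDC exit from the bone marrow, was found in 36.7%, and in at most 4.8% of the other types. Lyz2, the lysozyme of myeloid cells, was found in 5.06% of thinned pDCs. Its 98.7% in monocytes and macrophages was set by their gate, which required Lyz2 UMIs, and is no check of the label. Without thinning, Ms4a1 of B cells was found in 1 pDC each of PBS and 3-day WGP, Cd3g of T cells in 2 of 7-day WGP and Xcr1 of cDC1s in 0 of 158. The definition left out barcodes with Cd79a, Cd3d or Cd3e, which favours few B and T cell UMIs. Even so, Cd79b of B cells was found in 13, 16 and 15 pDCs of PBS, 3-day WGP and 7-day WGP. Clec9a of cDC1s was found in 14, 26 and 22. Thinned, Clec9a was found in 8.2% of pDCs and 20.4% of cDC1s, whose gate used it. Other pDC markers were shared with other types. Ly6d was found in 63.3% of thinned pDCs and 83.3% of B cells, Mzb1 in 15.2% and 43.1%, and Spib in 13.9% and 12.8%, and Irf7 in 11.4% of pDCs and 11.8% of monocytes and macrophages. Tcf4, Bst2 and Runx2 thus went with the label, while Ly6d, Mzb1, Spib and Irf7 did not set pDCs apart at this depth.

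Levels were next given as CPM, the UMIs of a gene summed over the pDCs of a library, divided by all UMIs of those cells and scaled to a total of 1000000. As compared to all other kept barcodes of the same library, Siglech had the largest mean log2 ratio, 6.45, followed by Cox6a2 at 5.93 and Ccr9 at 5.40, all of which the definition used. All log2 ratios of levels were computed after 10 CPM was added to both values. Among genes with a UMI in at least 20% of pDCs of every library, the next of the genes that it did not use were Cd209d (5.11), a C-type lectin of the DC-SIGN family, Gm21762 (4.99), Cd300c (4.89), an activating receptor of the CD300 family, AC140186.1 (4.85), Smim5 (4.81) and Runx2 (4.64). Upb1, an enzyme of pyrimidine breakdown, stood at 4.32, Bst2 at 4.13, Atp1b1, a sodium pump subunit, at 4.10 and Dntt, the DNA polymerase TdT of lymphoid precursors, at 4.01. Lag3, an inhibitory receptor that binds MHC class II, stood at 3.87, P2ry14, a receptor for UDP-sugars, at 3.71, Cd7 at 3.68 and Tcf4 at 3.48. A gene that is found in the same cells as Siglech is favoured by the definition, so these ratios are a description.

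**Figure D2:**
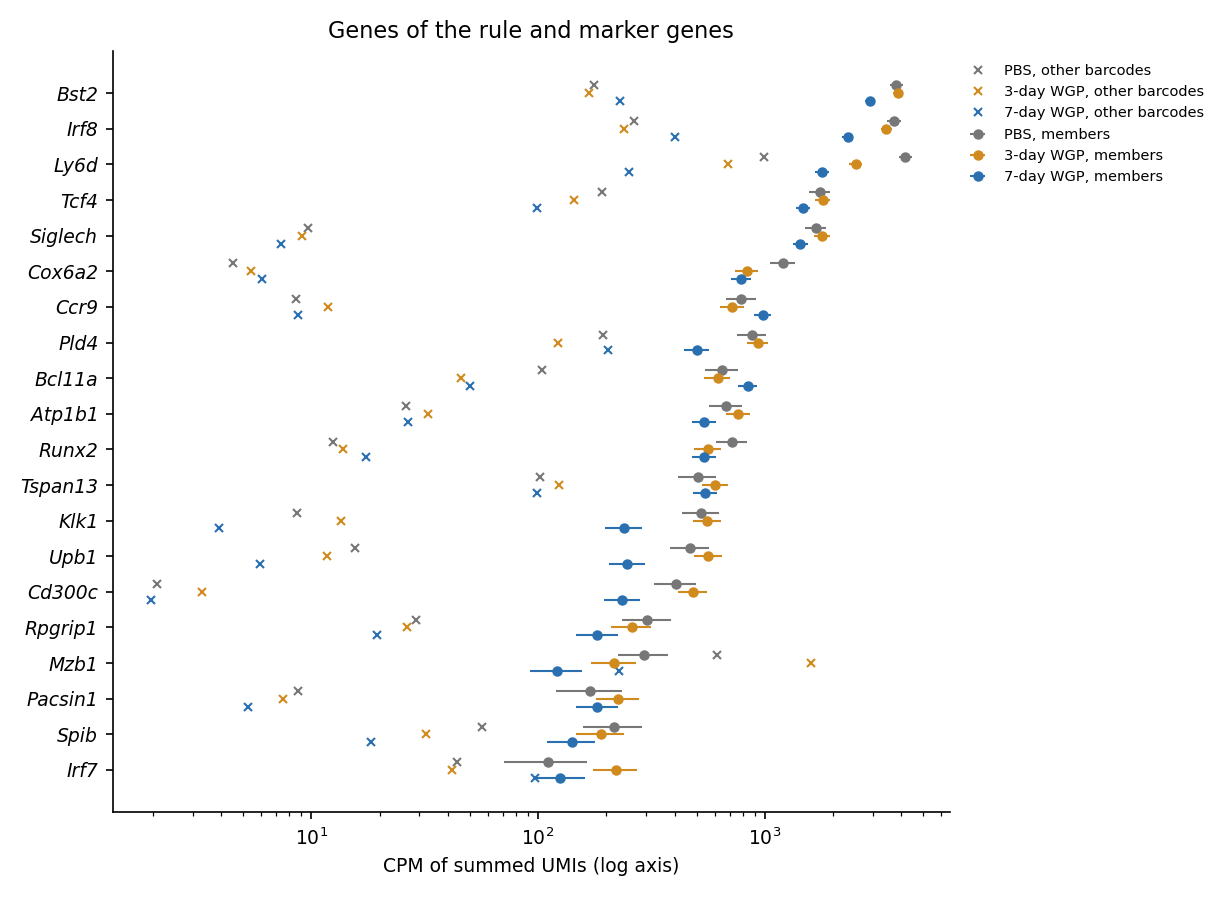
CPM of summed UMIs (horizontal log axis) of 20 genes, the 5 that chose the pDCs by their presence and 15 further markers, with pDCs as points with exact 95% Poisson intervals and all other barcodes of the same library as crosses. The points lie to the right of the crosses in each library except for Mzb1. The 7-day WGP point lies lowest for each gene but Ccr9, Pacsin1, Irf7, Bcl11a and Tspan13, by little for some, such as Cox6a2 and Runx2.

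The central markers Siglech, Tcf4, Bst2 and Irf8 differed little between PBS and 3-day WGP and were lower in 7-day WGP. Siglech stood at 1674, 1784 and 1432 CPM in PBS, 3-day WGP and 7-day WGP, and Tcf4 at 1743, 1798 and 1471 CPM. Bst2 stood at 3798, 3852 and 2903 CPM, log2 ratios to PBS of 0.02 at 3 days and -0.39 at 7 days. Irf8 stood at 3702, 3434 and 2319 CPM, log2 ratios of -0.11 and -0.67, with an interval of the 7-day ratio from -0.81 to -0.54 without the added CPM. Irf7, the factor that amplifies interferon transcription, stood at 110, 220 and 125 CPM and was found in 13, 35 and 25 cells. Runx2 stood at 716, 561 and 539 CPM and Spib, an ETS factor of pDCs, at 216, 190 and 141 CPM. Bcl11a, needed for lymphoid and pDC development, stood higher in 7-day WGP, at 647, 619 and 840 CPM. The summed level of Ccr9 was also higher there, at 784, 718 and 977 CPM. In cells thinned to equal depth, however, Ccr9 was found in 72.2%, 37.1% and 58.3%, which is not higher in 7-day WGP than in PBS. The definition used Ccr9, which was the only companion gene in 1, 6 and 19 cells. Its level is thus not independent of how the cells were chosen. For Siglech, Tcf4 and Bst2, the PBS and 3-day WGP intervals overlapped.

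Of the 6032 genes with at least 20 UMIs over all pDCs, 232 were higher and 173 lower in 3-day WGP than in PBS by a log2 ratio of 1 or more, which is 3.85% and 2.87%. In 7-day WGP, 334 genes (5.54%) were higher and 150 (2.49%) lower than in PBS. Between 7-day and 3-day WGP, 210 (3.48%) were higher at 7 days and 106 (1.76%) lower. The median over all genes was -0.00093 at 3 days and 0.018 at 7 days. At both times 133 genes were past this fold upwards and 35 downwards, and since both ratios share the PBS library this is no sign of repetition. Many such genes rest on few molecules. With the 1 cell that held most of a gene's UMIs left out of the higher library, the counts past the fold were 186 in place of 405 at 3 days and 275 in place of 484 at 7 days.

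Groups of pDC genes were described by how many of their measured members were past that fold. Over all genes, 3.85% were higher and 2.87% lower past it at 3 days, and 5.54% and 2.49% at 7 days. Of 14 tested transcription factors of the lineage, 0 were past it at 3 days, and at 7 days 2 were higher and 0 lower. The 2 were Stat3, which transmits FLT3 ligand signals, at 96.3, 138 and 219 CPM, and Spi1, which encodes PU.1 of myeloid cells, at 91.7, 138 and 221 CPM. Of 30 tested surface genes, 0 were past the fold at 3 days, and at 7 days 1 was higher and 2 lower. The higher one was Ptprc, which encodes CD45 (706, 872 and 1485 CPM), and the lower ones were Ly6d and Cd4, the coreceptor that mouse pDCs share with helper T cells (161, 82.5 and 63.5 CPM). Of 30 other genes known from pDC profiles, 0 were past the fold at 3 days, and 5 were lower at 7 days (2.49% of all genes), with a median of -0.29 against 0.018 over all genes. These were Smim5 (587, 388 and 231 CPM), Mzb1, a chaperone of antibody secretion (294, 217 and 121 CPM), Klk1 (523, 558 and 240 CPM), Klk1b27 (138, 68.7 and 28.7 CPM) and Hsd11b1, which regenerates active glucocorticoid (50.5, 60.5 and 16.4 CPM). Klk1 and Klk1b27 belong to a family of near-identical genes whose reads may be split between them, and Klk1 stood at 92.7 CPM in the free RNA of PBS, the RNA of barcodes with at most 100 UMIs. Cd300c (404, 481 and 236 CPM), Pld4, a nuclease of endolysosomes (876, 932 and 500 CPM), and Upb1 (468, 564 and 248 CPM) were lower at 7 days by less than the fold, with log2 ratios of -0.75, -0.80 and -0.89.

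Ly6d, a surface protein of lymphoid precursors, B cells and pDCs, had the largest difference in molecules among the pDC markers. It stood at 4165 CPM in PBS, 2518 CPM in 3-day WGP and 1786 CPM in 7-day WGP. The log2 ratios to PBS were -0.72 and -1.22, and the interval of the 7-day ratio without the added CPM ran from -1.36 to -1.09. Per cell, the median was 40.7, 21.6 and 2.49 UMIs per 10000, and 33 of 36, 57 of 62 and 38 of 60 cells held a UMI. Thinned to equal depth, 77.8%, 83.9% and 33.3% of cells held one, so the 7-day WGP cells were split into cells with and without Ly6d. Among these 60 cells, 11 had under 5% ribosomal-protein UMIs, and their part in the split was not tested. In the same order, Ly6d in other barcodes, where B cells carry it, stood at 987, 687 and 251 CPM.

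That split followed other genes. After these values were seen, the pDCs were divided into 107 cells with a Cox6a2 UMI, 38 without one and 13 with under 5% ribosomal-protein UMIs. The division is a description, since the definition used Cox6a2, and 15 of the 107 cells with Cox6a2 had exactly 1 UMI of it. Cells with Cox6a2 were 86.1% (70.5 to 95.3%) of pDCs in PBS, 72.6% (59.8 to 83.1%) in 3-day WGP and 51.7% (38.4 to 64.8%) in 7-day WGP. Cells without it were 8.33% (1.75 to 22.5%), 27.4% (16.9 to 40.2%) and 30% (18.8 to 43.2%), which is 3, 17 and 18 cells. The cells with under 5% ribosomal UMIs were 2, 0 and 11, and in 7-day WGP these had 1133 to 3160 UMIs and 9.59 to 28.3% mitochondrial UMIs. The median depth was 5384, 4684 and 9178 UMIs with Cox6a2 and 8950, 5084 and 10391.5 without, higher without in each library, and its part in the differences between the sets was not tested.

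Summed over all libraries, the cells without Cox6a2 kept Tcf4 and had less of Ly6d and Irf8 and more of Crip1, Cst3 and the Ifitm genes. They differed by library. In PBS, 3-day WGP and 7-day WGP they had medians of 9, 11 and 8 of the 14 further markers, against 12 in each library with Cox6a2. Their median Siglech UMIs were 8, 7 and 4.5, against 11, 10 and 18 with Cox6a2. Tcf4 stood at 1554 CPM in cells with Cox6a2 and 1679 CPM in cells without. Ly6d stood at 3479 and 459 CPM, Irf8 at 3489 and 1758 CPM and Siglech at 1893 and 881 CPM. Crip1, a small LIM-domain protein abundant in conventional dendritic cells, stood at 518 and 2931 CPM and was found in 78 of 107 and in 38 of 38 cells. Cst3, the protease inhibitor cystatin C, stood at 1464 and 2984 CPM. Zbtb46, a transcription factor of conventional dendritic cells, had 4 UMIs in 4 of 107 cells and 25 UMIs in 14 of 38 cells. Cx3cr1, the fractalkine receptor, stood at 5.5 and 66.5 CPM, Klf4 at 46.4 and 206 CPM and H2-DMa, which loads peptides on MHC class II, at 550 and 1030 CPM. Irf8 was found in 107 of 107 cells with Cox6a2 and in 29 of 38 without, and in 7-day WGP in 11 of 18 without. The cells without Cox6a2 met the definition and are counted as pDCs, but whether they are of the pDC lineage was not tested, and each 7-day share and ratio over all pDCs includes them. Both sets held Plac8 (3694 and 4283 CPM) and Tyrobp, which encodes the adaptor DAP12 (4483 and 3849 CPM), at high levels.

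Of 5958 genes tested between those sets, 187 (3.14%) were higher and 299 (5.02%) lower in the cells without Cox6a2 by a log2 ratio of 1 or more. Each set was summed over all libraries, in unequal parts. PBS gave 191763 of 732310 UMIs with Cox6a2 and 23592 of 315639 without, and 7-day WGP gave 289507 and 179350. Differences between libraries thus enter these ratios too, and their part was not tested. Among genes found in at least 40% of the cells of the higher set, the highest ratios were those of Ckb, the brain-type creatine kinase, at 3.57, Fcgrt, the neonatal Fc receptor, at 3.38, Ifitm2 at 3.37 and Plbd1, a phospholipase, at 3.03. Fcgrt was found in 34 of 38 cells without Cox6a2 and 29 of 107 with it. The lowest were those of Rgs1, a brake on chemokine receptor signalling, at -4.25, Ly6d at -2.89, Iglc3 at -2.75, Mzb1 at -2.58, Smim5 at -2.57 and Dntt at -2.49. Dntt was found in 4 of 38 cells without Cox6a2 and 58 of 107 with it. All of these genes were picked after their values were seen.

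**Figure D3:**
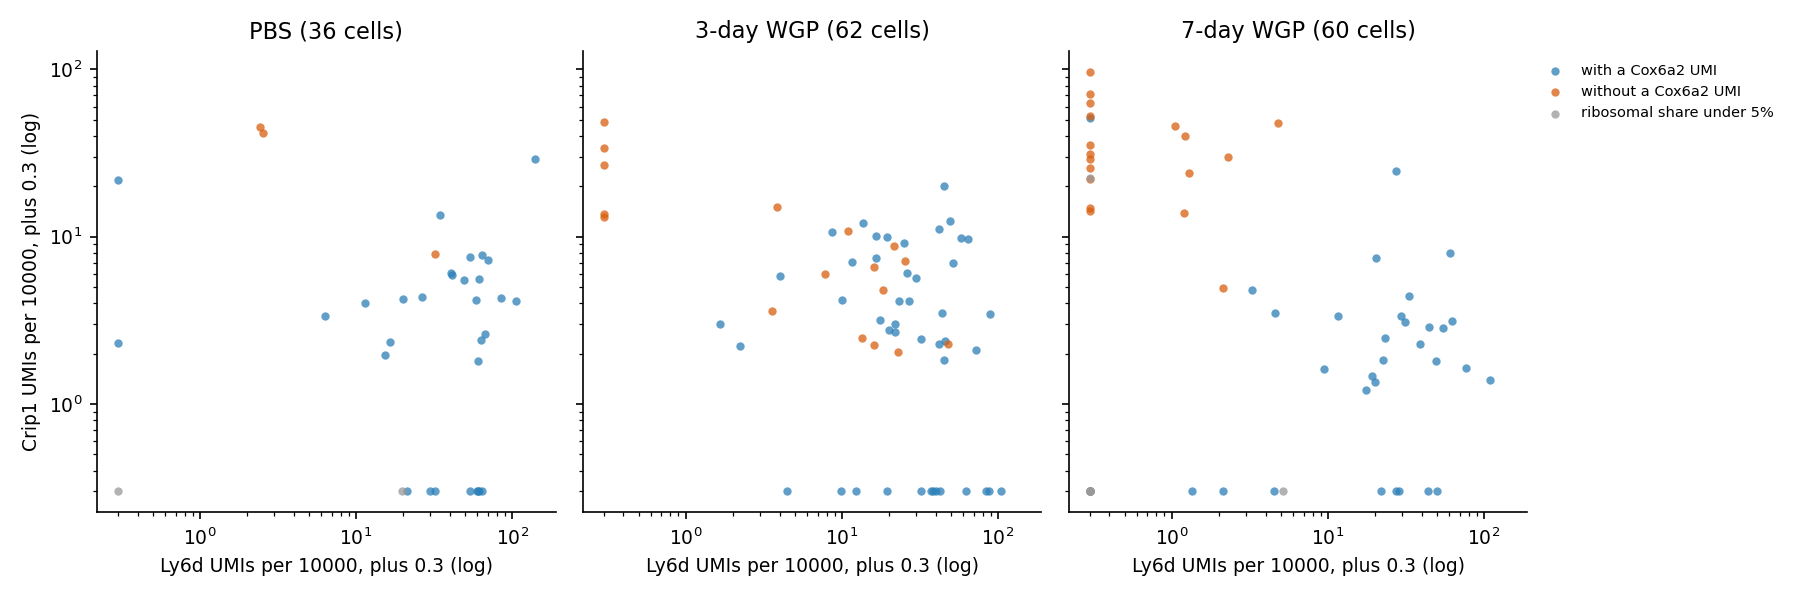
Each point is 1 pDC, with Ly6d (horizontal) and Crip1 (vertical) in UMIs per 10000 UMIs of the cell on log axes after 0.3 was added, coloured by set, with 1 panel per library. Cells with high Crip1 and little or no Ly6d lie at the upper left, are mostly without a Cox6a2 UMI and are most frequent in the 7-day WGP panel.

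**Figure D4:**
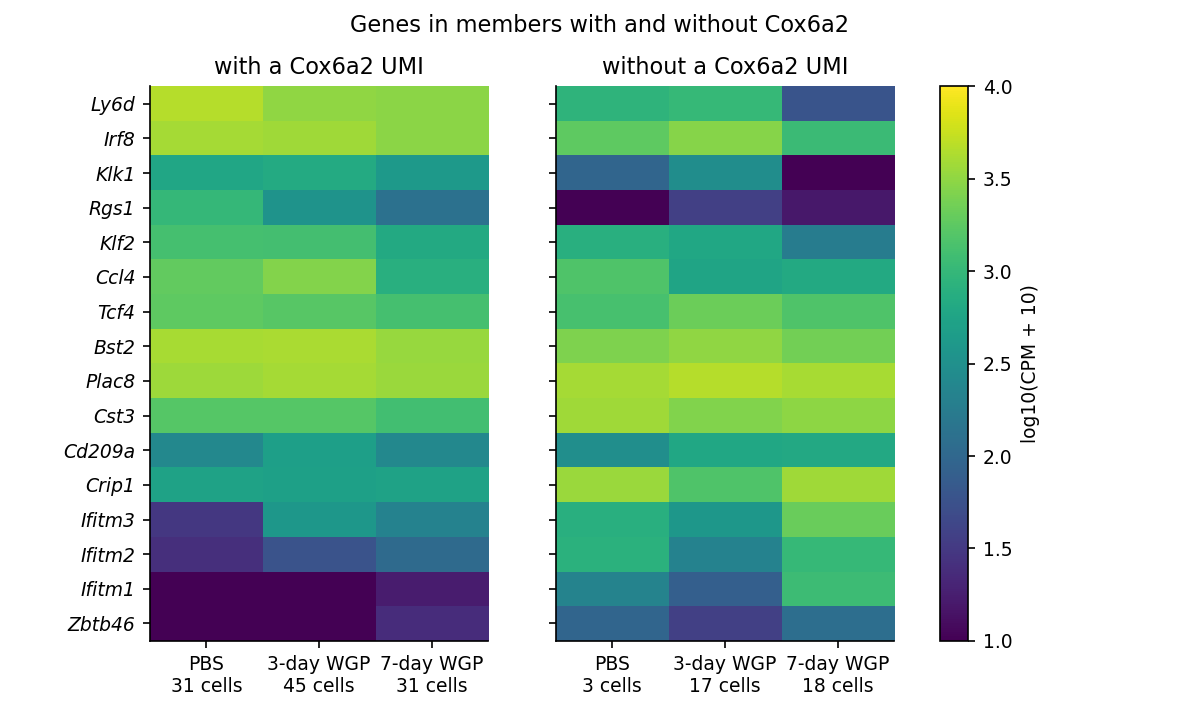
Heat map of log10 of the CPM plus 10 for 16 genes in pDCs with and without a Cox6a2 UMI, each by library. Crip1 and Ifitm2 are higher in the cells without Cox6a2 in each library, where Ly6d is lower, and the PBS column without Cox6a2 rests on 3 cells.

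Differences between libraries were therefore set beside the same differences within the cells with Cox6a2, 31, 45 and 31 in number without those of low ribosomal share. There Ly6d stood at 4615, 3191 and 2977 CPM in PBS, 3-day WGP and 7-day WGP, so the 7-day level stayed near the 3-day one. Irf8 stood at 3922, 3709 and 3012 CPM and Siglech at 1731, 1960 and 1941 CPM. Crip1 stood at 532, 502 and 522 CPM, so its higher level in 7-day WGP pDCs as a whole (849, 808 and 1704 CPM) was not seen within this set. In the 18 cells of 7-day WGP without Cox6a2, Crip1 stood at 3758 CPM and Ly6d at 50.2 CPM, whereas in the 17 of 3-day WGP they stood at 1491 and 1020 CPM.

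The Ifitm genes, interferon-induced membrane proteins that hinder the entry of viruses, were all higher in 7-day WGP than in PBS, and Ifitm1 and Ifitm3 had the largest ratios of the interferon-stimulated genes tested. Their promoters are shown because the 3 genes were higher together in 7-day WGP, with those letters in capitals that match the interferon-stimulated response element, searched on both strands as TTTC, any 2 bases and TTTC, which reads GAAA, any 2 bases and GAAA on the other. The sequences are the 250 bases before and 50 bases after the start of each gene from RefSeq on GRCm38.p6, written along the gene's strand. Ifitm1 lies on the plus strand (chr7:140967826-140968125), and Ifitm2 (chr7:140955912-140956211) and Ifitm3 (chr7:141010695-141010994) lie on the minus strand.
Ifitm1: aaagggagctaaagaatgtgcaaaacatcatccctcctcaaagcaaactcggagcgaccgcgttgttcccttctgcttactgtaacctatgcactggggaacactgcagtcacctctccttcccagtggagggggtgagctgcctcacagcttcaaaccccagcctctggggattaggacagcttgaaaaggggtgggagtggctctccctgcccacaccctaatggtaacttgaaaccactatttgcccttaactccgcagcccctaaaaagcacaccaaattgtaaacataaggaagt
Ifitm2: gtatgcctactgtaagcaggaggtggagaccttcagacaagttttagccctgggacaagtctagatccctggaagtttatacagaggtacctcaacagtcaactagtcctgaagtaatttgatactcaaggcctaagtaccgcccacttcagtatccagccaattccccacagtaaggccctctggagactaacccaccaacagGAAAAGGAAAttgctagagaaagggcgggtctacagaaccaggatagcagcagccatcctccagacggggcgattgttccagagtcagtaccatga
Ifitm3: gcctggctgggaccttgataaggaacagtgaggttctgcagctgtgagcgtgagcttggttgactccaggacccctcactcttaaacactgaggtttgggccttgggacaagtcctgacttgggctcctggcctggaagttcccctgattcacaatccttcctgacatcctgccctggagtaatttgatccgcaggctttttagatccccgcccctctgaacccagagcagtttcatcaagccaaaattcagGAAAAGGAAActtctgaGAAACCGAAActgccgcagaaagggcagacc
The Ifitm1 window held 0 matches, that of Ifitm2 held 1 and that of Ifitm3 held 2. Of all 32851 promoters of the same length, 1131 (3.44%) held the motif, and of 54 promoters of the interferon-stimulated genes listed here 29 did. A match describes letters only and is not a bound site.

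Ifitm1 stood at 22.9 CPM in PBS, 22 CPM in 3-day WGP and 418 CPM in 7-day WGP, and was found in 1, 1 and 14 cells. Its 7-day log2 ratio to PBS was 3.70, with an interval from 2.94 to 5.83 without the added CPM. Ifitm2 stood at 101, 96.2 and 434 CPM in 4, 5 and 20 cells, a 7-day log2 ratio of 2.00 (1.47 to 2.81 without the added CPM). Ifitm3 stood at 101, 377 and 871 CPM in 4, 8 and 22 cells, log2 ratios of 1.80 at 3 days and 2.99 at 7 days. The family was thus low in most pDCs of each library and was held at 7 days by a minority of cells. The 3-day value of Ifitm3 rested on 1 cell with 25498 UMIs, which held 92 of its 137 UMIs.

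The Ifitm transcripts lay mainly in the cells without Cox6a2. Over all libraries, Ifitm1 was found in 2 of 107 cells with Cox6a2 and in 14 of 38 without it. In 7-day WGP, Ifitm1 stood at 6.9 CPM with Cox6a2 and 1126 CPM without, and Ifitm3 at 204 and 2035 CPM. Ifitm genes are also abundant in other leukocytes, and their free RNA was higher after WGP. In PBS, 3-day WGP and 7-day WGP the free RNA held 33.2, 89.1 and 137 CPM of Ifitm1, and 944, 1522 and 1970 CPM of Ifitm3. The 7-day pDCs held a higher CPM of Ifitm1 and a lower CPM of Ifitm3 than the free RNA of their library. From the level of acinar enzyme transcripts, free RNA was estimated to make up 1.28%, 0.863% and 0.235% of pDC UMIs.

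Of 59 listed interferon-stimulated genes, those of the Ifitm family included, 36 were tested. At 3 days 8 were higher and 1 lower by the fold, against 3.85% and 2.87% of all genes, with a median log2 ratio of 0.16 beside -0.00093 over all genes. With cells of at most 10000 UMIs alone, 23 were tested at 3 days, of which 1 was higher and 3 lower, and the median was -0.073. At 7 days 13 were higher and 0 lower, with a median of 0.57 beside 0.018, and 31 of 36 ratios were positive. The share of the list that was higher at 7 days, 13 of 36, stands against 5.54% of all genes. With the 1 cell that held most of each gene left out of the higher library, 4 were higher at 3 days and 9 at 7 days, and the medians were 0.01 and 0.32. In pDCs with at least 1 Cox6a2 UMI, a setting chosen after seeing the data, 28 of the listed genes were tested. At 7 days 8 were higher and 1 lower, with a median of 0.56, against 232 higher and 148 lower of 4933 genes. At 3 days 7 were higher and 2 lower, with a median of 0.27, against 192 higher and 174 lower of those genes.

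Slfn5, of the Schlafen family, stood at 18.3, 60.5 and 105 CPM in 3, 12 and 18 cells, log2 ratios of 1.31 and 2.01. Parp14, an ADP-ribosyltransferase, stood at 32.1, 49.5 and 86.0 CPM, and Irgm1, an interferon-inducible GTPase, at 36.7, 27.5 and 88.1 CPM. These genes were spread over cells rather than held by 1. Eif2ak2, which encodes the antiviral kinase PKR, had 1, 11 and 22 UMIs, and the 7-day ratio without the added CPM had an interval from 0.67 to 8.66. Gbp7, a guanylate-binding protein, had 1, 2 and 25 UMIs and an interval from 0.87 to 8.84. Gbp2 had 0 UMIs in PBS and 26 UMIs over 13 cells in 7-day WGP, which is higher by a log2 ratio of at least 1.95 against a floor of 3 UMIs over the PBS pDCs. Its 20 UMIs in 3-day WGP all lay in 1 cell. Isg15, a ubiquitin-like modifier, had 0, 29 and 21 UMIs, of which 22 of the 29 lay in 1 cell.

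Several genes of this group that are known to be high in pDCs at rest were under the fold at both times. Ly6e stood at 2417, 2645 and 2087 CPM, Bst2 is given above, and Ifi203 stood at 179, 198 and 252 CPM. Ifi27l2a stood at 619, 899 and 676 CPM, but in 3-day WGP 107 of its 327 UMIs lay in 1 cell. The summed level of the list was 8959, 10367 and 10396 CPM in pDCs. In all other barcodes it was 5437, 5310 and 11819 CPM and in free RNA 5296, 6358 and 9722 CPM, so the list was higher at 7 days outside the pDCs too.

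**Figure D5:**
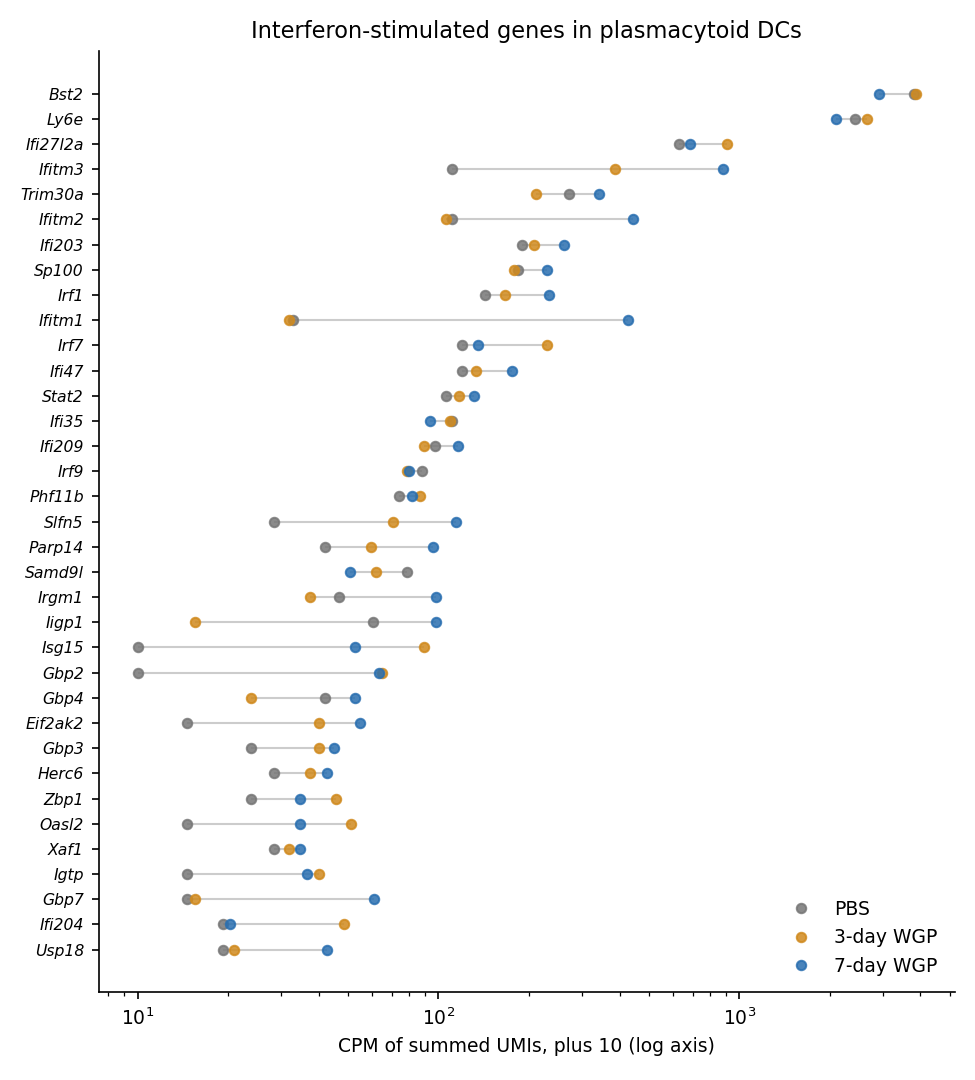
CPM plus 10 (horizontal log axis) of the tested interferon-stimulated genes in pDCs, except 1 that is not shown, with 1 point per library. At 7 days most points lie to the right of PBS, with the widest gaps for Ifitm1 and Ifitm3, and Ly6e and Bst2 stay at a high level in each library.

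No transcript of the interferons themselves was found. All 20 type I and type III interferon genes measured had 0 UMIs in the 158 pDCs, which allows up to 13.8, 8.25 and 6.15 CPM for a gene in PBS, 3-day WGP and 7-day WGP. Interferon transcripts were therefore not detectable at this depth. Tlr7, the endosomal receptor for single-stranded RNA, had 20, 29 and 29 UMIs (91.7, 79.7 and 59.4 CPM), and Tlr9, the receptor for CpG DNA, had 1, 0 and 3 UMIs. Unc93b1, the chaperone that brings both to endosomes, stood at 743, 797 and 629 CPM, and Slc15a4, a transporter of the endolysosome needed for their signalling, at 133, 124 and 133 CPM. By the fold, 3.85% of all genes were higher and 2.87% lower at 3 days, and 5.54% and 2.49% at 7 days. Of 27 tested genes of endosomal sensing, 0 were past the fold at 3 days, and at 7 days 2 were higher and 0 lower. The 2 were Irak4, a kinase below MyD88, with 2, 7 and 20 UMIs, and Lgmn, an endolysosomal protease, at 59.6, 96.2 and 176 CPM. Myd88 stood at 41.3, 85.2 and 90.1 CPM, under the fold at both times.

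Of the 24 listed cytokines and chemokines, 8 had enough UMIs to be tested, and 3 were higher and 1 lower at 3 days, and 5 higher and 2 lower at 7 days. Of all genes, 3.85% and 2.87% were at 3 days and 5.54% and 2.49% at 7 days. Ccl4, a chemokine that attracts leukocytes, was the main one, at 1872 CPM in PBS, 2081 CPM in 3-day WGP and 758 CPM in 7-day WGP, in 21, 43 and 34 cells. The 7-day log2 ratio to PBS was -1.29, with an interval from -1.51 to -1.10 without the added CPM, and within the cells with Cox6a2 the levels were 1903, 2768 and 777 CPM. The lower 7-day level was thus also seen within that set. Free RNA moved the other way, at 102, 384 and 427 CPM. Ccl3, a related chemokine, stood at 239, 52.2 and 47.1 CPM in 9, 3 and 9 cells. Il12a, the p35 subunit of interleukin-12, had 2, 5 and 31 UMIs in 1, 5 and 15 cells, and the 7-day ratio without the added CPM had an interval from 0.82 to 5.90. Tnf, Cxcl2 and Ccl5 were higher through single cells. Tnf stood at 4.59, 46.7 and 30.7 CPM, but 1 cell held 82.4% of its 3-day UMIs and 100% of its 7-day UMIs. Il1b had 5, 51 and 120 UMIs. At 3 days 50 of the 51 lay in 1 cell, and at 7 days the 120 lay in 8 cells, with 53 in the highest and 31 in the next. Il12b, Il6 and Il10 had 0 UMIs.

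Rgs1 had the second lowest 7-day ratio of the named genes, at 881, 242 and 98.3 CPM in 22, 27 and 14 cells. Its log2 ratios to PBS were -1.82 at 3 days and -3.04 at 7 days, with an interval of the latter from -3.65 to -2.70 without the added CPM. Within the cells with Cox6a2 it stood at 986, 339 and 121 CPM, and its free RNA was at 119, 204 and 265 CPM. Rgs2, of the same family, stood at 294, 170 and 71.7 CPM. The lowest 7-day ratio, -3.05, was that of H2-Q6, a nonclassical MHC class I gene at 174, 44.0 and 12.3 CPM, whose reads are uncertain since H2-Q7 is nearly identical. H2-Q7 stood at 674, 500 and 504 CPM.

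Immediate early and heat shock genes answer to stress, cell handling included, and 24 of 25 were tested. At 3 days Egr1, Dusp1 and Socs3 were higher and 5 genes lower, and at 7 days 6 were higher (Junb, Egr1, Ier2, Ier3, Dusp1 and Socs3) and 4 lower. The shares of all genes were 3.85% and 2.87% at 3 days and 5.54% and 2.49% at 7 days. The 5 lower at 3 days were heat shock genes. Hspa1b, an inducible HSP70, stood at 752, 250 and 760 CPM in 24, 17 and 45 cells, a 3-day log2 ratio of -1.55, and Hspa1a, a near-identical copy, at 486, 179 and 459 CPM. Dnajb1 stood at 261, 77.0 and 137 CPM, Hsph1 at 82.6, 13.8 and 75.8 CPM and Hsp90aa1 at 885, 421 and 768 CPM. Their free RNA moved alike for Hspa1b, at 685, 394 and 600 CPM, and the part of cell handling was not tested. The 4 lower at 7 days were Klf2, a factor of leukocyte quiescence (1229, 1042 and 457 CPM), Btg2 (683, 723 and 328 CPM), Fosb (161, 157 and 63.5 CPM) and Nr4a1 (110, 63.2 and 34.8 CPM). Within the cells with Cox6a2, Klf2 stood at 1299, 1243 and 646 CPM. Socs3, which dampens cytokine signals through STAT3, was higher, at 27.5, 66.0 and 186 CPM in 4, 10 and 28 cells, with a 7-day log2 ratio of 2.39. Free RNA of Socs3 stood at 41.6, 93.1 and 197 CPM. Dusp1 and Egr1 were held mainly by 1 cell in both WGP libraries.

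Among antigen presentation genes, those of MHC class I were mostly under the fold. Of 23 MHC class I genes, 0 were higher, and H2-Q6 alone was lower at either time. H2-D1 stood at 2500, 2744 and 2608 CPM, H2-K1 at 2174, 2315 and 2196 CPM and B2m at 1913, 2117 and 2085 CPM. Of 13 tested genes of MHC class II and costimulation, H2-DMb2 was lower at 3 days, and at 7 days Cd40 and Cd83 were higher and H2-DMb2 and H2-Oa lower. The shares over all genes were 3.85% higher and 2.87% lower at 3 days, and 5.54% and 2.49% at 7 days. Cd74, the invariant chain, stood at 4046, 4544 and 3984 CPM, H2-Aa at 2339, 2073 and 1829 CPM and H2-Ab1 at 1619, 1160 and 1110 CPM. Cd40, which receives help from T cells, had 0, 1 and 24 UMIs, the last in 10 cells, and was higher at 7 days by a log2 ratio of at least 1.84. Cd83, a marker of dendritic cell maturation, had 3, 1 and 25 UMIs, and the 7-day ratio without the added CPM had an interval from 0.18 to 4.27. Its free RNA, at 144, 102 and 147 CPM, was above its pDC level in each library.

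Of 14 tested chemokine and homing receptors, Ccr1 was higher at 3 days, and Ccr1 and Cx3cr1 at 7 days. Among all genes, 3.85% were higher at 3 days and 5.54% at 7 days. Ccr2, which binds CCL2, stood at 252, 481 and 402 CPM, log2 ratios of 0.90 and 0.65, under the fold. Ccr1 had 0 UMIs in PBS and stood at 16.5 and 47.1 CPM after WGP, a 7-day log2 ratio of at least 1.78. Cx3cr1 had 3, 1 and 21 UMIs, with an interval of the 7-day ratio from -0.10 to 4.03. Selplg, the P-selectin ligand, stood at 826, 929 and 844 CPM and Cxcr3 at 59.6, 68.7 and 53.3 CPM. Both were under the fold at both times.

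None of the 14 tested signalling adaptors was past the fold. Tyrobp stood at 4367, 4935 and 3599 CPM, Fcer1g, the Fc receptor gamma chain, at 1275, 1548 and 1506 CPM and Syk, the kinase both recruit, at 156, 195 and 197 CPM. Of 11 tested genes of beta-glucan recognition and CARD9 signalling, Fcgr2b was higher at 3 days, and Fcgr2b and Lgals3 at 7 days. For all genes, the shares were 3.85% higher and 2.87% lower at 3 days, and 5.54% and 2.49% at 7 days. Card9, the adaptor of that pathway, had 0, 6 and 9 UMIs. Lgals3, a galectin, stood at 165, 278 and 447 CPM, a 7-day log2 ratio of 1.38, below its free RNA at 249, 624 and 761 CPM. Fcgr2b, the inhibitory Fc receptor, had 2, 22 and 20 UMIs, with 9 of the 22 in the 3-day cell of 25498 UMIs. Of 14 genes of glycolysis 0 were past the fold at either time, and of 29 genes of the secretory pathway 0 at 3 days and Mzb1 alone at 7 days.

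Cell cycle genes were lower in both WGP libraries but were held by few cells. Of 20 tested, 10 were lower at 3 days and 11 at 7 days, against 2.87% and 2.49% of all genes, with 0 higher at either time. Top2a, a topoisomerase of dividing cells, had 36, 13 and 15 UMIs in 2, 4 and 4 cells, and Mki67 had 17, 10 and 9 UMIs in 4, 1 and 3 cells. Hmgb2 stood at 743, 360 and 287 CPM, and 68 of its 162 PBS UMIs lay in 1 cell.

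Genes of lymphoid precursors are a known trait of pDCs. Dntt stood at 124, 184 and 254 CPM, but 1 cell held 50.8% of its 7-day UMIs. Il7r, the receptor of a lymphoid growth factor, stood at 243, 223 and 324 CPM. Ighm, the heavy chain of IgM, was found in all 36, all 62 and in 56 of 60 cells, at 1119, 1339 and 830 CPM, and Iglc3 stood at 738, 528 and 428 CPM. Thinned to equal depth, Ighm was found in 63.3% of pDCs and 95.1% of B cells. It was also found in 29.2% of T cells, 23.9% of cDC1s, 21.2% of cDC2s and 16.5% of monocytes and macrophages. Summed over the lymphoid genes listed, free RNA stood at 47980, 80898 and 28005 CPM. Of 10 tested genes of this group, 0 were past the fold at 3 days, and at 7 days Ms4a6c was higher (147, 247 and 430 CPM) and Ly6d lower. All genes together had 3.85% higher and 2.87% lower at 3 days, and 5.54% and 2.49% at 7 days.

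Of 17 tested genes of transitional and conventional dendritic cells, Cd209a and Lyz2 were higher and Ltb lower at 3 days, and Zbtb46, Cx3cr1 and Lyz2 were higher and Ltb lower at 7 days, against 3.85% higher and 2.87% lower of all genes at 3 days and 5.54% and 2.49% at 7 days. Cd209a, a DC-SIGN relative, stood at 243, 522 and 375 CPM in 12, 40 and 32 cells, a 3-day log2 ratio of 1.07. Zbtb46 had 2, 3 and 25 UMIs in 1, 2 and 16 cells, and the interval of its 7-day ratio ran from 0.48 to 5.60. Ltb, the lymphotoxin beta chain, had 16, 1 and 5 UMIs. Lyz2 stood at 4.59, 797 and 182 CPM, but 281 of its 290 UMIs in 3-day WGP lay in the cell of 25498 UMIs and 38 of its 89 in 7-day WGP in a cell of 11002 UMIs. The cell of 11002 UMIs also held 53 of 120 UMIs of Il1b and 28 of 30 of Cxcl2 in 7-day WGP, so other 7-day cells held Lyz2 and Il1b as well.

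Markers of B cells, T cells and macrophages were lower in pDCs than in other barcodes, whereas those of cDC2 were higher. The definition left out barcodes with a UMI of Cd79a, Cd3d, Cd3e or a C1q gene. This favours low levels of B cell, T cell and macrophage markers, whereas no cDC2 gene had to be absent. The summed markers of B cells stood at 248, 124 and 90.1 CPM (4042, 3605 and 2136 CPM in other barcodes) and those of T cells at 50.5, 19.2 and 55.3 CPM. Those of monocytes and macrophages stood at 45.9, 1182 and 334 CPM, in 8, 12 and 35 cells, with 9, 5 and 5 of 12 genes at 0 UMIs, against 9391 to 16151 CPM in other barcodes. Those of NK cells stood at 13.8, 11.0 and 178 CPM, where 1 cell of 13019 UMIs held 61 of 62 UMIs of Gzma and 66 of 70 of Ccl5. Those of cDC2 stood at 1092, 1540 and 1321 CPM, above the 451, 303 and 491 CPM of other barcodes. Those of cDC1 stood at 151, 203 and 141 CPM (197, 137 and 182 CPM in other barcodes) and of acinar cells at 142, 49.5 and 26.6 CPM. Plasma cell markers stood at 96.3, 88.0 and 47.1 CPM, neutrophil markers at 4.59, 19.2 and 4.10 CPM, erythroid markers at 18.3, 11.0 and 16.4 CPM and those of endothelial cells and fibroblasts at 197, 187 and 258 CPM. The part of such cells in any ratio given here was not tested, other than by leaving out the 1 cell that held most of a gene.

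Finally, genes outside the lists were named by the size of their ratio, among those found in at least 10% of the cells of the higher library and above its free RNA. At 3 days the highest were Nup214, a nuclear pore protein with 0 PBS UMIs and a log2 ratio of at least 1.85, and Pfdn4, a prefoldin subunit with 1, 24 and 19 UMIs. Adam11, a membrane protein of the disintegrin family, stood at 22.9, 107 and 63.5 CPM in 4, 25 and 18 cells, a log2 ratio of 1.83 at 3 days. Its level in other barcodes was 0.956 to 1.38 CPM. At 7 days, after Ifitm1, the highest that were found in PBS included Gcnt2, a glycosyltransferase, with 3, 7 and 63 UMIs, Il6st, the shared gp130 receptor of the interleukin-6 family, with 1, 12 and 33 UMIs in 1, 7 and 20 cells, and Bach1, a repressor of heme-responsive genes, with 3, 10 and 54 UMIs. The intervals of their 7-day ratios without the added CPM ran from 1.62 to 5.55, from 1.30 to 9.23 and from 1.38 to 5.33.

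Bcl2l11, which encodes the pro-apoptotic protein BIM, stood at 18.3, 22 and 129 CPM in 3, 6 and 23 cells, a 7-day log2 ratio of 2.29 to PBS and 2.12 to 3-day WGP. Traf1, an adaptor of TNF receptors, stood at 27.5, 16.5 and 141 CPM in 5, 6 and 20 cells, and its log2 ratio of 7-day to 3-day WGP was 2.51. Kdr, a VEGF receptor, stood at 41.3, 22 and 109 CPM in 6, 5 and 20 cells and at 2.28 to 5.70 CPM in free RNA, but its 7-day log2 ratio of 1.21 was -0.16 with cells of at most 10000 UMIs alone. Over all pDCs these genes were shared by 20 to 23 of the 60 cells of 7-day WGP rather than held by 1.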

How the data were processed

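Gene expression was measured in single live CD45+ cells of the pancreas with 10x Genomics 3′ v3.1 chemistry, 1 library each for PBS, 3-day WGP and 7-day WGP, with groups as labelled. The deposited values are UMI counts per gene and barcode, made by the authors with Cell Ranger 3.1.0 against mm10 according to the submitters' processing notes, which also name Seurat, and no barcode was selected or value normalised. UMI counting removes amplification copies, and 3′ reads leave levels independent of transcript length. Columns of values left unused numbered 0.

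Barcodes were kept at 1000 or more UMIs and at most 30% mitochondrial UMIs. No doublet caller was run, since 158 cells are few, and doublets were treated only by the genes that had to be absent and by an alternative with at most 10000 UMIs. UMIs were summed over the pDCs of a library and scaled to CPM, and log2 ratios carried a pseudocount of 10 CPM on genes with at least 20 UMIs over all pDCs. With 1 library per group no test fits, so a log2 ratio of 1 marked a difference of size only. Exact Poisson intervals were given for levels and ratios and exact binomial (Clopper-Pearson) intervals for shares, at 95%. A floor of 3 UMIs over the pDCs of a library bounded ratios against 0. Free RNA was the sum of barcodes with at most 100 UMIs. Cells of other types were gated by marker UMIs, and equal depth was reached by thinning to 1000 UMIs.

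Named genes were the genes of the definition and the markers, the members of each gene list of highest CPM or past the fold, the 25 genes of highest mean ratio to other barcodes, and in each comparison and direction the 10 largest ratios among genes found in at least 10% of the cells of the higher library and above its free RNA, without mitochondrial, ribosomal and sex-linked genes. Genes named between the sets with and without Cox6a2, and the single cells that held most of a gene, were chosen after their values were seen. The definition and all gene lists were chosen with earlier results of these data known. Promoters came from RefSeq on GRCm38.p6, the same assembly as mm10. Scripts were tested on simulated data and run in Python 3.11.15 with numpy 2.4.6, pandas 2.3.3, scipy 1.17.1 and matplotlib 3.10.9, and TMM factors came from edgeR 4.0.16 in R 4.3.3. Alternatives covered the barcode limits, the definition, the sex of cells, the pseudocount, the UMI minimum and the scaling. Values of a few genes are not reported here.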

Additional observations from a re-analysis of the deposited data

Results flagged for a closer look

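Barcodes of 500 to 999 UMIs, which were below the minimum of 1000, held a few that met the other conditions of the definition. They were 1 of 197 such barcodes in PBS (0.508%, exact binomial interval 0.0129 to 2.80%), 4 of 239 in 3-day WGP (1.67%, 0.458 to 4.23%) and 0 of 250 in 7-day WGP, which allows up to 1.46%. The 3-day WGP value was picked out because it lies in barcodes outside the comparisons of the report, which entered only an alternative with a minimum of 500 UMIs, and is above the PBS value. It rests on 4 barcodes against 1, and the 2 intervals overlap.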

How the results depend on the processing

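Depth limits these results, since the pDCs of a library held 217999, 363737 and 488155 UMIs, so a gene at 0 UMIs may reach 13.8, 8.25 or 6.15 CPM. Intervals cover counting error only and say nothing of the spread between mice. No paired analysis was possible because each group was 1 library and no test was made. The log2 ratio of the pDC share to PBS was above 0 under each alternative run, but several of the intervals included 0. At 3 days the ratio nearest 0 was 0.21 (-0.62 to 1.06) in cells with Y-linked UMIs alone (0.89 in all cells). At 7 days it was 0.29 (-0.46 to 1.03) with at least 1 Cox6a2 UMI required (1.07), an alternative chosen after seeing the data. In cells with Xist alone the ratios were 1.35 (-1.33 to 3.71) at 3 days and 1.02 (-0.96 to 3.07) at 7 days. The number of genes past the fold at 3 days (405) and 7 days (484) was 190 and 163 in cells with Xist alone, 761 and 814 with a pseudocount of 2 CPM, 29 and 83 with 50 CPM, 892 and 1003 without a minimum beyond 1 UMI, 27 and 68 with at least 100 UMIs, and 186 and 275 with the 1 cell of most UMIs left out, also chosen after seeing the data. Of the genes past the fold, higher and lower were split 89 to 354 at 3 days and 243 to 341 at 7 days with no gene required absent (232 to 173 and 334 to 150 as defined), 142 to 162 at 3 days with at most 10000 UMIs, and 54 to 136 and 60 to 103 in cells with Xist alone. The median of the interferon-stimulated genes at 3 days (0.16) was -0.36 with no gene required absent and -0.36 in cells with Xist alone, and -0.073 with at most 10000 UMIs. At 7 days (0.57) it was 0.21 with at most 10000 UMIs, -0.26 in cells with Xist alone and 0.32 with the 1 cell left out. Of 133 ratios of named genes past the fold, recomputed under 20 settings, 2046 of 2331 values stayed past it, 270 did not and 15 reversed. With no gene required absent, reversed log2 ratios were -0.95 (Ifitm3), -1.91 (Lyz2), -1.41 (Fcgr2b) and -0.083 (Slc39a1) at 3 days and -2.60 (Lyz2) and -1.59 (Fcgr2b) at 7 days. With at most 10000 UMIs they were -0.48 (Ifitm3) and -1.85 (Il1b) at 3 days and -0.16 (Kdr) at 7 days. In cells with Xist alone the 3-day ratios were -1.51 (Ifitm3), 6.55 (Hspa1a) and 2.88 (Hspa1b). Il1b at 3 days was -1.36 with further genes required absent and -1.37 with the 1 cell left out, and Stmn1 at 7 days was 0.29 with at least 2 companion genes. The cause was not tested. With TMM factors all 133 stayed past the fold.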
